A study of Rattus norvegicus with 9 samples.

Results

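The respiratory chain was followed through 64 genes among the 5760 distinct genes listed in 2 deposited tables of rat cardiac RNA-seq. They are every listed gene whose symbol begins with Nduf, Sdha to Sdhd, Uqcr, Cox and a digit, Atp5, Cyc1, Cycs or mt-. Of these, 53 are nuclear and 11 are mitochondrially encoded, 9 of the latter being transfer RNA (tRNA) genes and 2 protein-coding genes. The table for Cal and Model lists 15 members among 4288 genes, 8 nuclear and 7 mitochondrially encoded. The table for Cal and Con lists 55 among 2458 genes, 46 nuclear and 9 mitochondrially encoded. In all, 6 members are in both tables.

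Heart tissue of male Sprague Dawley rats was sequenced, with 3 animals in each of 3 groups. The control rats had sham surgery and received water. The model rats had their left anterior descending coronary artery ligated, which leads to heart failure, and received water. The Cal rats had the same ligation and received calycosin, a plant isoflavone, by mouth at 80 mg/kg per day for 28 days. Ligation leaves infarcted and surviving muscle in 1 heart, and the labels give no zone. All animals were operated on, and no group received the drug without ligation.

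The names of the columns conflict, which decides every direction below. Libraries are called by the headings of their own columns, Cal, Model and Con. In the Cal and Model table the column of means named Cal equals the mean of the libraries headed Model in 4288 of 4288 genes, and the means named Model equal those of the libraries headed Cal. In the other table the means named Model equal the mean of the libraries headed Cal in 2458 of 2458 genes. The libraries headed Cal hold the same reads in both tables in 986 of 986 shared genes. Under the names of the mean columns, Cal over Model below would read as model over Cal, and Cal over Con as model over control. The second table is titled as model against control and has no library headed Model. Which naming is right could not be settled here.

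The respiratory chain lies in the inner mitochondrial membrane. Complexes I and II feed electrons into ubiquinone, complex III passes them through cytochrome c to complex IV, which reduces oxygen, and complex V makes ATP from the proton gradient built by complexes I, III and IV. Most subunits are nuclear genes, while the mitochondrial DNA encodes a small core of subunits together with the ribosomal and transfer RNAs needed to translate them. Heart muscle depends on this chain for most of its ATP.

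Values are normalized counts, that is, a gene's reads divided by 1 size factor per library. Each library had 2860826 to 3998471 reads on listed genes where Cal met Model, and 3270460 to 4659882 where Cal met Con. Fold changes are on the log2(normalized count + 1) scale and were tested with limma, with Benjamini-Hochberg adjusted p-values that cover all genes of a table. A gene is called when its adjusted p is under 0.05. Both tables hold only genes for which the authors' own adjusted p was under 0.05, so nearly every listed gene is called here as well, and counts and medians of members describe a selected list. An unlisted subunit has no value here. With 3 libraries against 3, an exact permutation test of a single gene cannot go below 0.1.

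The nuclear subunits were compared first between the libraries headed Cal and Con. All 38 listed structural subunits were higher in the libraries headed Cal, by 0.24 to 1.55 on the log2 scale with a median of 0.43, and in each of them the groups did not overlap, as in 97.4% of all listed genes. Of all 55 members, 53 were called higher and 2 lower, beside 60.6% of all listed genes called higher and 39.2% called lower. Beyond a log2 fold change of 1, 7 members were higher and 1 was lower, beside 18% and 10.9% of the listed genes. The nuclear members shifted together but not far. Their median fold change, 0.42, lay below the median of 0.60 among all listed genes called higher, and above the median of 0.37 over all listed genes. This direction depended on the scaling of the libraries, which is taken up below.

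Complex I, the NADH dehydrogenase, had 14 structural subunits listed and all 14 were higher, with a median of 0.43. Ndufa2, an accessory subunit of its NADH-oxidizing arm, had 2768, 2579 and 2934 normalized counts in the libraries headed Cal and 1121, 1502 and 1572 in those headed Con. It showed the largest shift in the complex, 0.99 (SE 0.13, limma adjusted p = 0.000426). Ndufa3 followed at 0.77 (SE 0.089, limma adjusted p = 0.000228), from 1937 ± 163 (SD, n = 3) in Con to 3298 ± 198 in Cal. At the other end stood Ndufb8 at 0.24.

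Complex II, succinate dehydrogenase, is the complex with no mitochondrially encoded subunit. Its 3 listed subunits were all higher, by 0.26 for Sdhc, 0.31 for the flavoprotein Sdha and 0.46 for the membrane anchor Sdhd. Sdhd had 6517, 6878 and 6775 normalized counts in Cal and 4874, 4508 and 5255 in Con (limma adjusted p = 0.00121). Every Cal library therefore lay above every Con library for this anchor subunit.

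Complex III, the cytochrome bc1 complex, had 6 of 6 listed subunits higher with a median of 0.38. Uqcr11 stood highest at 0.48 (SE 0.12), and Uqcrfs1, the Rieske iron-sulfur protein, followed at 0.45 (SE 0.060, limma adjusted p = 0.000429). Uqcrfs1 held 16565, 17776 and 17583 normalized counts in Cal and 12854, 12396 and 12801 in Con. The core proteins Uqcrc1 and Uqcrc2 were lowest, at 0.25 each. Cycs, cytochrome c itself, was higher by 0.32 (SE 0.071, limma adjusted p = 0.00387), with 10059, 11110 and 9742 in Cal and 7976, 8449 and 8243 in Con.

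Complex IV, cytochrome c oxidase, had 6 of 6 listed subunits higher with a median of 0.43. Cox5a and Cox8a led at 0.49 and 0.47, and Cox6a1 and Cox6b1 were lowest at 0.30 and 0.33. Heart and skeletal muscle use their own isoforms of some of these subunits. Cox6a2, the muscle form, was the more abundant of its pair per kilobase of gene length, with a mean of 25731 normalized counts per kilobase in Cal against 2579 for the ubiquitous Cox6a1. Within a library, where no size factor enters, the log2 ratio of Cox6a2 to Cox6a1 reads was 3.27 ± 0.14 (SD, n = 3) in Cal and 3.18 ± 0.12 in Con. For the muscle form Cox8b over Cox8a it was 2.08 ± 0.22 in Cal and 2.09 ± 0.31 in Con. Both differences were smaller than the spread between replicates.

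Complex V, the ATP synthase, had 8 of 8 listed subunits higher with the highest median of the complexes, 0.56. Atp5k, the membrane-bound e subunit that takes part in dimer formation, stood apart from all other nuclear members. It held 2974, 2630 and 3374 normalized counts in Cal and 978, 1059 and 1019 in Con, a shift of 1.55 (SE 0.10, limma adjusted p = 9.48e-06). The groups were far apart and the Con libraries lay close together. Atp5e, the epsilon subunit, was next at 0.67, with 3994, 3975 and 4590 in Cal and 1991, 2909 and 3098 in Con. Atp5g2, 1 of 3 genes for the membrane ring subunit c, and Atp5a1, the alpha subunit, were lowest at 0.27 and 0.32. Within a library the log2 ratio of Atp5k to Atp5a1 reads was -4.79 ± 0.16 in Cal and -6.01 ± 0.14 in Con, a difference of 1.23 into which no size factor enters.

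Of the genes that build the complexes, 6 of 6 listed were higher in Cal, with a median of 0.54. Cox11, a copper chaperone for complex IV, had the largest shift at 0.83 (SE 0.17, limma adjusted p = 0.00304) with low values of 172, 152 and 159 in Cal and 98.8, 74.6 and 99.2 in Con. Ndufaf8, an assembly factor of complex I, was higher by 0.74 and Sdhaf4, an assembly factor of complex II, by 0.64. Cox7a2l, which joins complexes into supercomplexes, had the smallest shift in the class at 0.27.

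**Figure D1:**
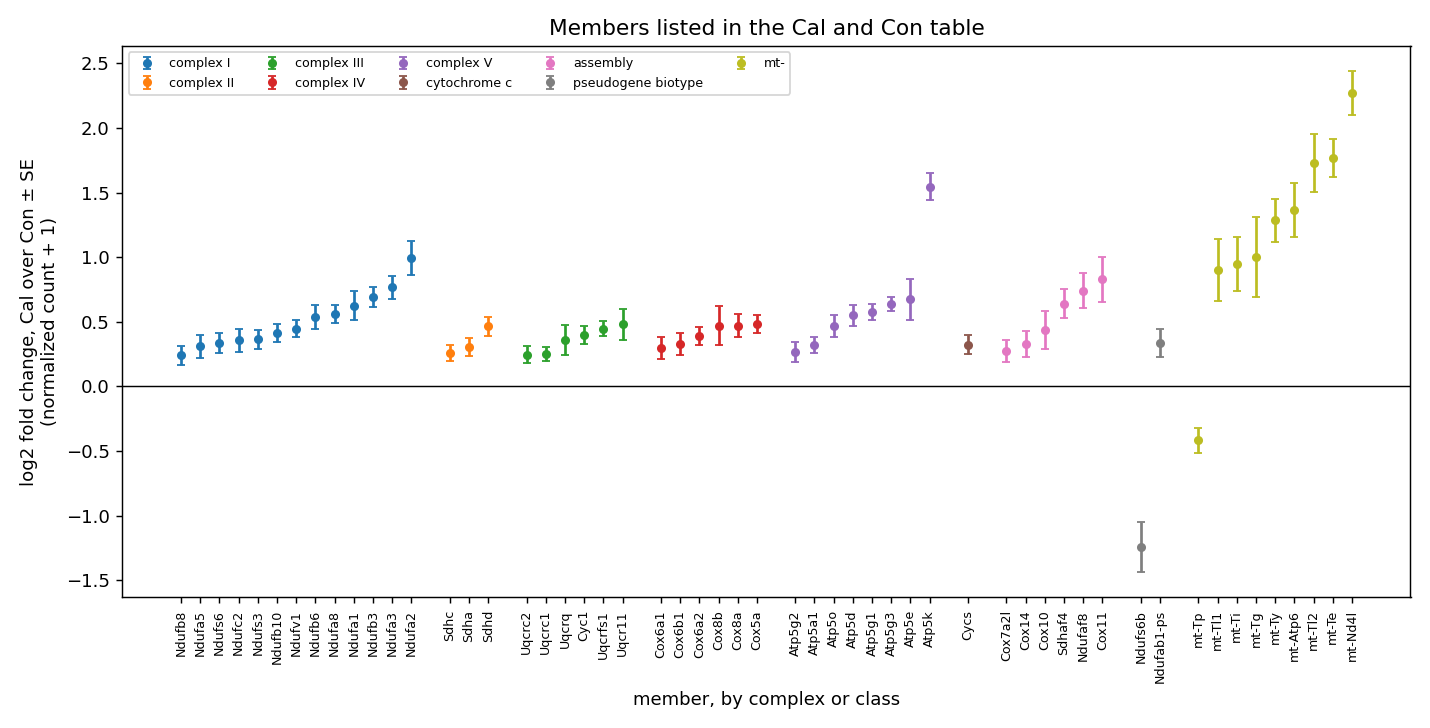
Log2 fold change of Cal over Con with its standard error (vertical axis, 3 libraries a group) for 54 of the 55 members listed in that table, grouped by complex or class (horizontal axis) and coloured likewise, with the authors' size factors. The structural subunits plotted sit between 0.24 and 1.55, Atp5k stands above the other nuclear members and the mitochondrially encoded members reach 2.27, while under quantile normalization the median of the nuclear members is -0.02.

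The shared direction of the nuclear subunits rested on the size factors. With the authors' size factors 45 of 46 nuclear members were called higher and their median was 0.42. With TMM factors computed on the listed genes 21 were called higher (median 0.19), with median-ratio factors 14 (median 0.14), with the total of listed reads 9 (median 0.04) and with quantile normalization 8 (median -0.02, and 8 called lower). The median of all listed genes moved along with them, from 0.37 to 0.14, 0.09, -0.01 and -0.04. Of all 2458 listed genes, 1490 were called higher with the authors' size factors. In the same order of scalings that count became 796, 684, 535 and 674, so the fall in calls was not particular to the nuclear members. Under quantile normalization 998 listed genes were called lower. Each of the alternatives scales on listed genes, which were chosen because they differed, and the unlisted genes that a full scaling would use have no values here.

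Each member was also followed over all 5 scalings. Of the 46 nuclear members 21 kept their sign and 8 remained called in the same direction in every one. These were Atp5k, Ndufa2, Ndufa3, Ndufb3, Atp5g3, Cox11 and Ndufaf8, which were higher in Cal, and Ndufs6b, which was lower. Atp5k ranged from 1.09 to 1.55 over the scalings and Ndufa2 from 0.52 to 0.99. Of the 9 mitochondrially encoded members all 9 kept their sign and 6 remained called. Their shifts were larger to begin with, with a median of 1.28 beside 0.42 for the nuclear members. The same shares over all listed genes were computed for neither comparison, so these counts have no background to be read against. From the authors' size factors to total listed reads, all listed genes called higher went from 1490 to 535 and those called lower from 964 to 970.

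**Figure D2:**
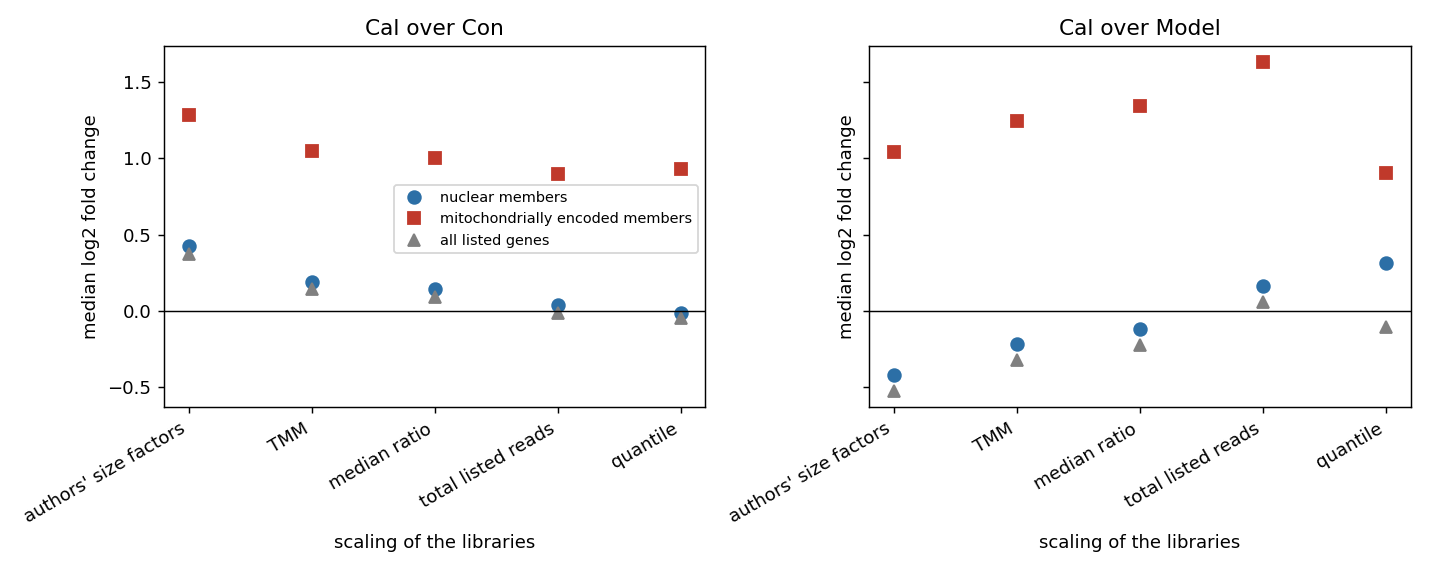
Median log2 fold change (vertical axis) of nuclear members, mitochondrially encoded members and all listed genes under 5 scalings of the libraries (horizontal axis), for Cal over Con on the left and Cal over Model on the right. The nuclear median lies near that of all listed genes, except under quantile normalization on the right (0.31 and -0.10). It crosses 0 in both comparisons. The mitochondrially encoded median stays between 0.90 and 1.63 over the scalings. On the right it is the median of 7 genes that split, 4 higher and 3 lower. With the authors' size factors it was 0.65 there when Model 1 was left out.

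Genes with a short deposited length were prominent among the larger shifts. Across the 38 structural subunits the Spearman correlation of fold change with the gene length given in the table was -0.48. Across the 46 nuclear members it was -0.31, and across all listed genes called higher it was -0.18. The correlation of fold change with the mean normalized count was -0.37 across the structural subunits. These genes share their libraries and their size factors, so the correlations are descriptions. The library headed Con 1 held the lowest of the 3 Con values for 24 of the 46 nuclear members, Con 2 for 19 and Con 3 for 3, while over all listed genes the shares were 34.1%, 35.5% and 30.5%. For Ndufa2 and Atp5e the value of Con 1 was well under those of Con 2 and Con 3.

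Promoters are shown because most nuclear members moved together with the authors' size factors and are known to share regulators. Any part of these regulators in the shifts was not tested. Nuclear respiratory factor 1 (NRF-1), estrogen-related receptors, ETS factors and YY1 regulate many respiratory chain genes, and hypoxia-inducible factors bind a short core sequence at genes that answer low oxygen. RefSeq promoters of the rat assembly GRCr8, with 250 bases before and 50 after each gene's start, were matched by symbol to 43 of 53 nuclear members. Those without an entry included Atp5h, Cox4i2, Cox6a1, Cyc1, Ndufa8, Ndufab1-ps, Ndufb9, Ndufs6b and Uqcr11. The NRF-1 core CGCANGCG, searched on both strands, was in 34.9% of the member promoters and in 8.23% of all 27457 promoters of that length. The YY1 core AAGATGGC was in 27.9% and 3.44%, the estrogen-related receptor core AAGGTCA in 16.3% and 4.37%, the ETS core CCGGAAG in 25.6% and 9.22%, and the hypoxia core ACGTG in 32.6% and 19.7%. The YY1 letters include ATG, so a match can also be the start of a reading frame. A match is a run of letters and not a bound site, and the member promoters were not matched to the others for base composition.

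The promoter of Atp5k, the nuclear structural subunit with the largest shift, lies at chr14:1464610-1464909 on the plus strand of GRCr8, under the rat symbol Atp5me. It holds 1 match each to the hypoxia, YY1, NRF-1 and ETS letters, shown in capitals in that order. The promoter of Cycs lies at chr4:80984718-80985017 on the minus strand, with 1 NRF-1 and 1 hypoxia match in capitals. The promoter of Uqcrc1, whose shift was among the smallest, lies at chr8:118467973-118468272 on the plus strand, with 3 NRF-1 matches and 1 YY1 match in capitals. The promoter of Ndufa4l2, which was listed only in the Cal and Model table and had the largest shift there, lies at chr7:65241919-65242218 on the plus strand, and of the 5 motifs only the YY1 letters, in capitals, are in it. All are written 5′ to 3′ along the gene.
Atp5k: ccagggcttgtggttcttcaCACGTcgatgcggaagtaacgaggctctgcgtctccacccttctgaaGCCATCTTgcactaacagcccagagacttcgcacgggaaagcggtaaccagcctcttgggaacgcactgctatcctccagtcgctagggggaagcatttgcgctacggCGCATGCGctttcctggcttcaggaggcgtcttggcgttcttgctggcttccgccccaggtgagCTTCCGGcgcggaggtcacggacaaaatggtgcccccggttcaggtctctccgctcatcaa
Cycs: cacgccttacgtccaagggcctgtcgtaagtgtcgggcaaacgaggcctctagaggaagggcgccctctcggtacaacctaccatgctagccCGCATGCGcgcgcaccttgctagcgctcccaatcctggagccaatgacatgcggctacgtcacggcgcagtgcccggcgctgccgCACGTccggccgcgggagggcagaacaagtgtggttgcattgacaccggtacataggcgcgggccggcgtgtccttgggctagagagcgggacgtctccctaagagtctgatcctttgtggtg
Uqcrc1: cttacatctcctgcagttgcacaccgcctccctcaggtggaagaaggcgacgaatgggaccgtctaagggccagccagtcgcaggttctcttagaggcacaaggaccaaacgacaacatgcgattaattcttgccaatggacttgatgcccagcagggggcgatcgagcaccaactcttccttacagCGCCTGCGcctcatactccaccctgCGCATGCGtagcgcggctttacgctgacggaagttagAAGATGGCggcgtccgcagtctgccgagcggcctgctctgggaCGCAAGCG
Ndufa4l2: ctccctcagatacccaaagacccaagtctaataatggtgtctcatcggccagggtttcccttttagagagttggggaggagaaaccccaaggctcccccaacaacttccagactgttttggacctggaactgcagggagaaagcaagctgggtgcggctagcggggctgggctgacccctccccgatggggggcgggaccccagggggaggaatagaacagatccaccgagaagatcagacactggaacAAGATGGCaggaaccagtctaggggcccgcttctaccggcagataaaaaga
Atp5k and Uqcrc1 both carry NRF-1 letters, and any link of such letters to the size of a shift was not tested.

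The mitochondrially encoded members were compared next. In the libraries headed Cal, 8 of 9 were higher than in those headed Con and 1 was lower, with a median of 1.28. mt-Nd4l encodes a membrane subunit of complex I and lies at positions 9877 to 10173 of the mitochondrial genome in the table's mouse coordinates. It held 9828, 10034 and 7217 normalized counts in Cal and 2348, 1645 and 1641 in Con. The groups were far apart, and the shift of 2.27 (SE 0.17, limma adjusted p = 1.82e-05) was the largest of all members. It ranged from 1.80 to 2.27 over the 5 scalings and was called in each.

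mt-Atp6, a subunit of the proton channel of complex V, held 18368, 19880 and 20282 in Cal and 7288, 10918 and 5454 in Con, a shift of 1.36 (SE 0.21, limma adjusted p = 0.00094). The Con libraries varied more than the Cal libraries here. The log2 ratio of mt-Atp6 reads to those of its nuclear partner Atp5a1 was -2.08 ± 0.067 in Cal and -3.12 ± 0.57 in Con. Of the tRNA genes, mt-Te (glutamate) was higher by 1.77, mt-Tl2 (leucine) by 1.73, mt-Ty (tyrosine) by 1.28, mt-Tg (glycine) by 1.01, mt-Ti (isoleucine) by 0.95 and mt-Tl1 (leucine) by 0.90, each called by limma. Under at least 1 other scaling mt-Tg, mt-Ti and mt-Tl1 kept their direction but were no longer called, with largest adjusted p values of 0.123, 0.055 and 0.108 by limma.

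mt-Tp, the proline tRNA gene at positions 15356 to 15422, went the other way. It held 3022, 3210 and 3266 in Cal and 3733, 4231 and 4756 in Con, and fell by 0.42 (SE 0.097, limma adjusted p = 0.0049). It remained lower and called in all 5 scalings, from -0.89 to -0.42. The tables give mt-Tp, mt-Te and mt-Ty on the minus strand and the other 8 mitochondrial members on the plus strand. The library kit named in the labels does not mark strand, so reads from the opposite strand of the same stretch cannot be told apart from them. The tRNA genes are 59 to 75 bases long, shorter than a sequencing read, so that a full-length read on one extends into its neighbours. Nuclear copies of mitochondrial DNA are a further uncertainty for every mt- gene.

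Nuclear and mitochondrially encoded members were then set against each other inside each library. The log2 ratio of summed mt- reads to summed nuclear member reads was -3.55 ± 0.11 in Cal and -4.36 ± 0.27 in Con, a difference of 0.82. It was -3.54, -3.44 and -3.66 in the Cal libraries and -4.40, -4.07 and -4.61 in the Con libraries, with no overlap. No test was made of this ratio, because its members were listed for differing between these same groups. Its mt- sum rests mostly on mt-Atp6 and mt-Nd4l, the only mt- protein-coding genes listed. The tRNA genes took 17.6% to 19.5% of that sum in Cal and 30.4% to 45.7% in Con. Unlisted mt- genes have no value here, so the ratio does not stand for the whole mitochondrial genome. Reads of the mt- members made up 0.752% to 0.848% of all listed reads in Cal and 0.394% to 0.562% in Con. The same ratio over the members of the Cal and Model table was -0.83, -0.71 and -1.22 in Cal and -1.95, -1.44 and -1.75 in Model, a difference of 0.79. Those sums hold other genes, with mt-Nd4l as the only mt- protein-coding gene. Levels of the ratio therefore cannot be compared across the tables, and both comparisons share the Cal libraries.

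**Figure D3:**
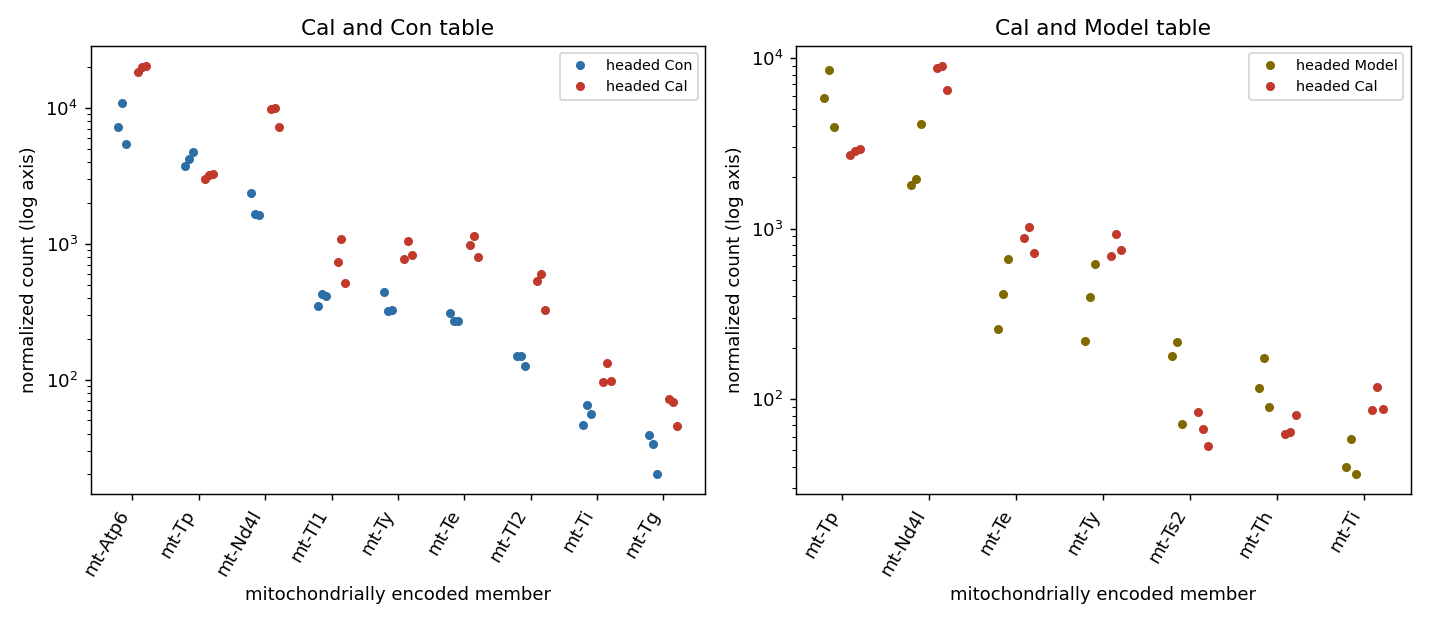
Normalized counts (vertical log axis) of each mitochondrially encoded member (horizontal axis) in every library, with the Cal and Con table on the left and the Cal and Model table on the right, 1 point per library and colours for the heading. mt-Nd4l is higher and mt-Tp lower in the libraries headed Cal in both panels, and Model 3 lies nearer to Cal than Model 1 and Model 2 do for mt-Nd4l, mt-Te, mt-Ty and mt-Tp.

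Between the libraries headed Cal and Model the mitochondrially encoded members split. Of 7 listed, 4 were higher in Cal and 3 lower, with a median of 1.05. Over all 15 members 6 were called higher and 9 lower, beside 46% of the listed genes called higher and 53.7% lower. Beyond a log2 fold change of 1 there were 6 higher and 4 lower members, beside 28.4% and 31.6% of the listed genes. In 14 of the 15 members the groups did not overlap, mt-Ts2 being the exception, beside 98.2% of all listed genes.

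mt-Nd4l held 8787, 8949 and 6473 normalized counts in Cal and 1806, 1948 and 4089 in Model. Every Cal library lay above every Model library, and Model 3 lay about midway. The shift was 1.71 (SE 0.32, limma adjusted p = 0.00235), and 2.09 without Model 3. mt-Te, mt-Ti and mt-Ty were higher by 1.06, 1.11 and 1.05, and these 3 tRNA genes and mt-Nd4l were called under all 5 scalings.

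mt-Tp held 2702, 2863 and 2929 in Cal and 5815, 8563 and 3920 in Model, and fell by 1.04 (SE 0.27, limma adjusted p = 0.00784). It fell by 1.32 without Model 3. mt-Th (histidine) and mt-Ts2 (serine), whose genes adjoin each other in the table's coordinates, fell by 0.82 and 1.06. mt-Tp, mt-Th and mt-Ts2 stayed lower under every scaling but lost their call under at least 1, with largest adjusted p values of 0.0917, 0.442 and 0.305 by limma.

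The make-up of mitochondrial reads could be compared over all 9 libraries, because 5 mt- genes are in both tables and a share within a library needs no size factor. Of the reads on these 5 genes, mt-Nd4l took 66.8%, 64.5% and 59.1% in the libraries headed Cal. It took 22.2%, 17.1% and 43.8% in those headed Model and 34.1%, 25.2% and 23.3% in those headed Con. The 3 Cal libraries were above all others, and Model 3 was nearest to them. All 5 genes were listed for differing between the Cal libraries and each of the other groups. None was selected on Model against Con libraries. A separation of Cal from the rest is therefore favoured by the selection and is only described. mt-Tp took 20.6%, 20.6% and 26.8% in Cal, 71.5%, 75.3% and 42.0% in Model, and 54.3%, 64.8% and 67.5% in Con. On the log2 scale the ratio of mt-Nd4l to mt-Tp was 1.497 ± 0.307 in Cal, -1.25 ± 1.16 in Model and -1.19 ± 0.46 in Con. Model and Con overlapped and did not differ beyond their spread.

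The ratio of 2 members that both rose shifted less. The log2 ratio of mt-Nd4l to mt-Te was 3.21 ± 0.093 in Cal, 2.56 ± 0.28 in Model and 2.71 ± 0.19 in Con. The 5 genes together had 12821 to 14782 reads per library in Cal, 7536 to 9733 in Model and 6649 to 7380 in Con. mt-Ti took the smallest share, 0.390% to 0.993% over the 9 libraries.

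**Figure D4:**
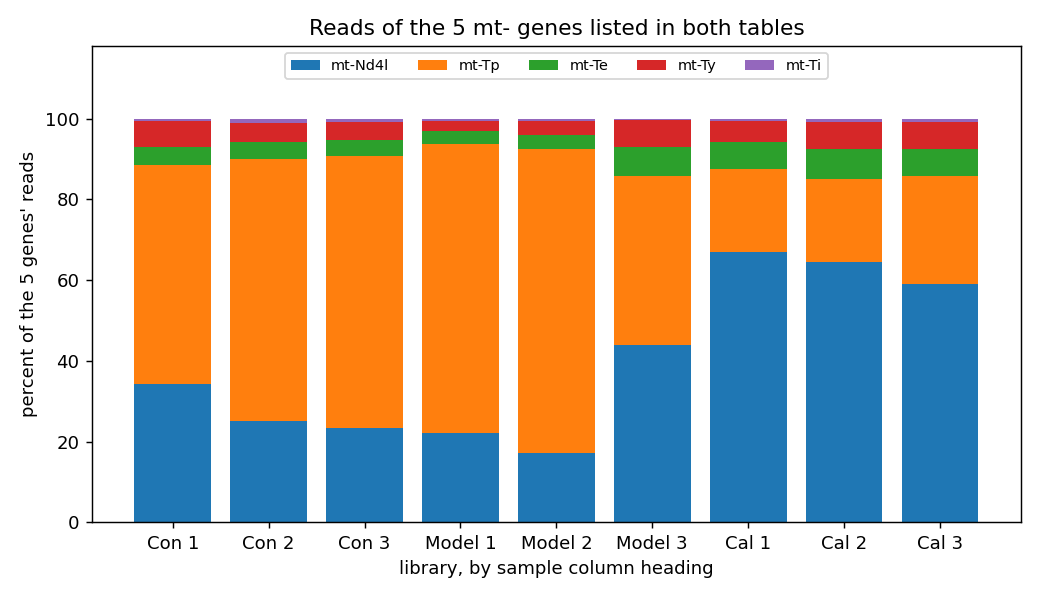
Share in percent (vertical axis) of the reads on the 5 mt- genes listed in both tables that each gene takes, stacked to 100% for each of the 9 libraries (horizontal axis, by column heading). mt-Nd4l takes 59.1% to 66.8% in the libraries headed Cal and 17.1% to 43.8% in the other 6, where mt-Tp takes 42.0% to 75.3%. The 5 genes were listed for differing between the Cal libraries and each of the other groups.

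The Cal and Model table lists 8 nuclear members, of which 2 were higher and 6 lower under Cal. The largest shifts were in isoforms that are tied to low oxygen in other settings. Ndufa4l2, a relative of the complex IV subunit Ndufa4 that is induced by hypoxia, held 279, 204 and 307 normalized counts in Cal and 70.2, 30.5 and 39.3 in Model. All Cal values were well above all Model values, with a shift of 2.54 (SE 0.33, limma adjusted p = 0.000656). Cox4i2, the isoform of complex IV subunit 4 that is also known from lung and low oxygen, held 141, 140 and 169 in Cal and 51.8, 35.4 and 28.8 in Model, a shift of 1.97 (SE 0.26, limma adjusted p = 0.000714).

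Both were called under all 5 scalings, Ndufa4l2 between 2.43 and 3.11 and Cox4i2 between 1.82 and 2.54. Relative to the structural subunit Cox7c in the same library, the log2 ratio of Cox4i2 was -5.76 ± 0.12 in Cal and -8.18 ± 0.35 in Model. That of Ndufa4l2 was -4.97 ± 0.23 in Cal and -7.95 ± 0.55 in Model. Cox4i1 and Ndufa4, the usual forms, were not listed. Neither Cox4i2 nor Ndufa4l2 was listed in the Cal and Con table.

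The 4 listed structural subunits were lower in Cal with the authors' size factors, within a narrow range, and all 4 turned positive under quantile normalization and under the total of listed reads. Cox7c of complex IV held 8285, 7590 and 8459 in Cal and 11581, 10648 and 10356 in Model, and fell by 0.42 (SE 0.14, limma adjusted p = 0.0195). Atp5h of complex V fell by 0.42, Ndufa13 of complex I by 0.37 and Ndufb9 of complex I by 0.50. Their direction was that of the median listed gene, which fell by 0.52 with the authors' size factors. Under quantile normalization the values were 0.37 for Cox7c, 0.35 for Atp5h, 0.27 for Ndufa13 and 0.09 for Ndufb9.

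Cox18, an insertase that places a complex IV core subunit in the membrane, had 98.7, 153 and 93.9 normalized counts in Cal and 217, 344 and 305 in Model. It fell by 1.33 (SE 0.26, limma adjusted p = 0.00293) with no overlap, and was lower and called in all 5 scalings. Of the 8 nuclear members only Cox18, Cox4i2 and Ndufa4l2 were called in the same direction in all 5.

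**Figure D5:**
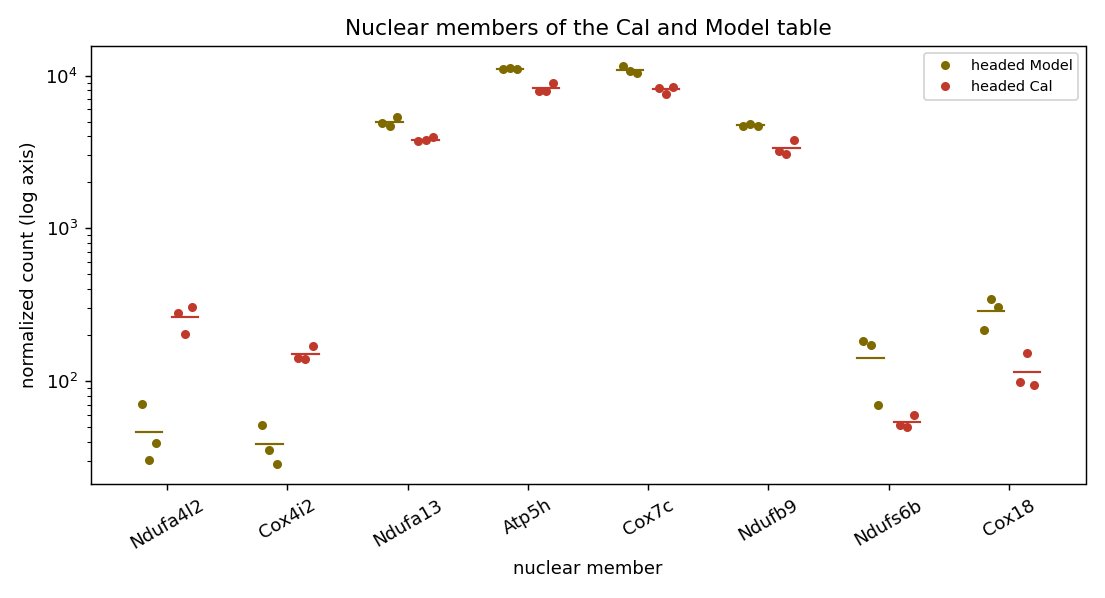
Normalized counts (vertical log axis) of the 8 nuclear members of the Cal and Model table (horizontal axis), 1 point per library with a bar at each group mean, coloured by heading. Ndufa4l2 and Cox4i2 are higher and Cox18 and Ndufs6b lower in Cal, while the 4 structural subunits have log2 fold changes between -0.50 and -0.37, in a direction that turns under quantile normalization.

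Ndufs6b was the only nuclear member in both tables. The tables class it as a processed pseudogene, a near copy of Ndufs6, the zinc-binding subunit of complex I, so its reads may be split between the copies and are uncertain. It held 57.8, 55.8 and 66.7 normalized counts in Cal and 114, 165 and 156 in Con, and fell by 1.24 (SE 0.20, limma adjusted p = 0.00105). Against Model it held 51.7, 49.7 and 59.8 in Cal and 181, 172 and 70.0 in Model, and fell by 1.26 (SE 0.37, limma adjusted p = 0.0128), or by 1.70 without Model 3. Ndufs6 itself was higher by 0.34 in Cal than in Con, and the log2 ratio of Ndufs6b to Ndufs6 reads was -5.86 ± 0.14 in Cal and -4.27 ± 0.19 in Con. Ndufab1-ps, the other member with the pseudogene class, was higher by 0.34 in Cal than in Con.

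Other mitochondrial genes were described from lists with the same counts and the same size factors. Between Cal and Con all listed members were higher in each list, namely 14 of 14 mitochondrial ribosomal proteins (median 0.41), 8 of 8 import and cristae genes (0.49), 6 of 6 citrate cycle genes (0.30), 5 of 5 adenine nucleotide carriers and uncouplers (0.30), 4 of 4 coenzyme Q genes (0.54) and 4 of 4 assembly factors outside the symbol rule (0.39). Beside them, 60.6% of all listed genes were called higher, with a median of 0.37. Slc25a4, the heart form of the ADP/ATP carrier, was higher by 0.55 (SE 0.052, limma adjusted p = 6.99e-05). The values of these lists under the other scalings were not computed. Between Cal and Model few of them were listed, with 2 of 2 mitochondrial ribosomal proteins and 2 of 2 coenzyme Q genes lower, Tomm70a of the import list lower by 0.61 (limma adjusted p = 0.0205), Coa7 of the assembly list higher by 0.56 and no citrate cycle gene. In that comparison 53.7% of all listed genes were called lower and 46% higher.

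Regulators of mitochondrial content were listed mainly between Cal and Model. Of 8 listed, 7 were higher in Cal and 1 lower, with a median of 1.09, beside 46% and 53.7% of all listed genes. Ppargc1b, a coactivator of estrogen-related receptors and NRF-1, went from 42.1 ± 19.8 (SD, n = 3) in Model to 356 ± 28.3 in Cal, a shift of 3.14 (SE 0.31, limma adjusted p = 0.000281). Ppargc1a, its better known relative, was higher by 1.72, Perm1 by 1.62 and Esrra by 0.95, whereas Pprc1 fell by 1.24. Polrmt, the RNA polymerase of mitochondria, was higher by 0.82. Against Con, 4 of 4 listed were higher, between 0.30 for Perm1 and 0.77 for Esrra, beside 60.6% of all listed genes. Ucp3, an uncoupling protein of muscle, fell by 1.92 between Model and Cal.

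Markers of cell types moved in the same comparisons, and their part in the results was not tested. In bulk tissue fewer cells of a type and less RNA per cell cannot be told apart. Every marker counted is from a list selected for change. Of all listed genes 60.6% were called higher in Cal than in Con and 39.2% lower. Between Cal and Con 7 of 18 cardiomyocyte markers were listed and all 7 were higher (median 0.31), with summed levels of 695113 to 714451 in Cal and 522623 to 639537 in Con. The log2 ratio of nuclear member reads to the reads of these 7 markers was -0.79 ± 0.059 in Cal and -0.88 ± 0.14 in Con, a difference of 0.09 that is smaller than the spread in Con. For the mt- members the same ratio was -4.34 ± 0.063 and -5.24 ± 0.33, a difference of 0.90 with no overlap. Both sides of these ratios were listed for differing between these same groups, so the differences are descriptions. Myh6 and Atp2a2 had the highest means of the 7 markers, 335145 and 237469 in Cal, and weigh most in the ratios. Fibroblast markers were lower in 4 of 4 listed, with sums of 9550 to 12371 in Cal and 14389 to 16008 in Con, and endothelial markers in 5 of 6, with sums of 13916 to 15412 and 20031 to 22912. Smooth muscle and pericyte markers were lower in 4 of 4 listed, with sums of 13894 to 15366 in Cal and 18882 to 22165 in Con. Erythroid markers were higher in 4 of 4 listed (11104 to 14863 in Cal, 6643 to 10394 in Con) and neutrophil markers in 2 of 2 (48.5 to 183 in Cal, 13.0 to 28.5 in Con). Of 2 listed macrophage markers Cd14 was higher and Mrc1 lower.

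Between Cal and Model 46% of all listed genes were called higher in Cal and 53.7% lower. Only Nkx2-5 of the 18 cardiomyocyte markers was listed, higher in Cal by 1.52. All 8 listed endothelial markers were higher, with sums of 18400 to 18987 in Cal and 6989 to 8813 in Model, and all 5 listed neutrophil markers were lower, with sums of 71.0 to 227 and 803 to 962. Macrophage markers were higher in 5 of 6 listed, with sums of 6602 to 7015 in Cal and 2538 to 3778 in Model, Itgam being lower. Fibroblast markers were higher in 3 of 4 listed, namely Col1a1 by 1.38, Col1a2 by 1.01 and Col3a1 by 0.85, while Dcn fell by 0.68, and their sums overlapped at 17378 to 21126 in Cal and 15696 to 22941 in Model. Both listed smooth muscle markers were higher (3194 to 3440 in Cal, 2079 to 2306 in Model), as was the adipocyte marker Plin1, which was near 0 in Model. No erythroid marker was listed here, no adipocyte marker against Con, and no lymphocyte marker in either table. The neutrophil marker Mpo was at 0 in all 3 Cal libraries.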

How the data were processed

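Cardiac RNA of 9 rats, 3 a group, was sequenced by the authors after poly-T bead selection as paired-end reads, aligned to rat reference sequences and counted per gene. The submitters' processing notes name mm8, mm9 and Bowtie 0.12.2 without a role, and both tables carry mouse Ensembl identifiers and mouse coordinates, so their genome build is not settled. Sample columns hold a deposited signal, the reads of a gene over a size factor that the authors set within each table (0.820 to 1.17 and 0.950 to 1.07), and whole reads were recovered for 100% of values within a tolerance of 0.02. Total depth is unknown, since only listed genes have values. The gene length is another value deposited by the authors. The authors' fold changes, p-values and adjusted p-values were not used. Libraries were grouped by sample column heading, and there were 0 columns of other samples.

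Fold changes came from limma 3.58.1 in R 4.3.3 (lmFit, eBayes with trend) on log2(normalized count + 1) within each table. edgeR 4.0.16 and DESeq2 1.42.0 were run on the recovered reads as alternatives. Further alternatives were other scalings on listed genes (quantile, median-ratio, TMM and total reads), a pseudocount of 0.1 or 10, a minimum mean of 10, a replicate block and dropping each library. The exact permutation test used scipy 1.17.1. The limma p-values set a difference between groups against the spread between animals within both groups, moderated over all listed genes of a table. The fits were tested on simulated data.

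Members and lists were chosen with earlier results of these data known. Named genes were all mt- members, the 2 highest and 2 lowest structural subunits of each complex, members in both tables or beyond a log2 fold change of 1, listed isoform pairs, and the extremes of the other lists. Genes shown for call stability, assembly factors, regulators and the ratios between genes were named after their values were seen. Of the genes this rule names, 1 is counted with its group but not reported here.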

Additional observations from a re-analysis of the deposited data

How the results depend on the processing

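Most changes came with the scaling or with a library left out, and the alternatives on recovered reads (edgeR, DESeq2), the pseudocounts and the filter on low means kept every count of calls within 1.5 times. All scalings other than the authors' use listed genes alone, so the cause of these changes was not tested. In Cal over Model, members called lower went from 9 to 4 under quantile normalization and 3 under median-ratio scaling. They went to 3 under TMM and 1 under total listed reads. Of all 4288 listed genes, those called lower went from 2301 to 1777, 1628, 1874 and 1125 in the same order. Members past the fold limit went from 10 to 6 under total listed reads. In the same order of scalings the nuclear median went from -0.42 to 0.31, -0.12, -0.22 and 0.17, and the mitochondrially encoded median was 1.63 under total listed reads. In Cal over Con, members called higher went from 53 to 16, 20, 28 and 14. Of all 2458 listed genes, those called higher went from 1490 to 674, 684, 796 and 535. The nuclear median went from 0.42 to -0.016, 0.14, 0.19 and 0.039. Under quantile normalization and total listed reads, members called lower went from 2 to 9 and 4. All listed genes called lower went from 964 to 998 and 970. Members past the fold limit went from 8 to 5 and 5, and the mitochondrially encoded median from 1.28 to 0.93 and 0.90. Counts past the limit over all listed genes were not computed under these scalings. The mt- to nuclear ratio inside a library, a check for Cal and Con added after seeing the data, ran from 0.67 to 0.94 for Cal minus Model and from 0.69 to 0.96 for Cal minus Con when a library was left out.

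Log2 fold changes of named members turned as follows. In Cal over Model under quantile normalization the values were Atp5h 0.35, Cox7c 0.37, Ndufa13 0.27 and Ndufb9 0.093, and under total listed reads Atp5h 0.17, Cox7c 0.17, Ndufa13 0.21 and Ndufb9 0.083. In Cal over Con under quantile normalization they were Atp5a1 -0.048, Atp5g2 -0.21, Cox6a1 -0.16, Cox6a2 -0.073, Cox6b1 -0.13, Cox7a2l -0.22, Cox8a -0.0076, Cycs -0.12, Ndufb8 -0.22, Sdha -0.036, Sdhc -0.18, Uqcrc1 -0.11, Uqcrc2 -0.13 and Uqcrfs1 -0.015. Under total listed reads they were Atp5a1 -0.065, Atp5g2 -0.12, Cox6a1 -0.089, Cox6b1 -0.056, Cox7a2l -0.11, Cycs -0.063, Ndufb8 -0.15, Sdha -0.080, Sdhc -0.13, Uqcrc1 -0.13 and Uqcrc2 -0.14, and under median-ratio scaling Atp5g2 -0.018, Cox7a2l -0.011, Ndufb8 -0.043, Sdhc -0.023, Uqcrc1 -0.032 and Uqcrc2 -0.038.

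Leaving out 1 library gave 4 to 9 members called lower, 6 to 10 past the fold limit and a mitochondrially encoded median of 0.65 to 1.08 in Cal over Model. There were 5 called lower without Cal 1, and 4 called lower and 6 past the limit without Cal 2, and the median was 0.65 without Model 1. In Cal over Con 49 to 53 members were called higher. The called lower shifts of Ndufa13, Atp5h, Cox7c, mt-Th and mt-Ts2 and the called higher shifts of mt-Ty against Model and of Cox7a2l and Cox8b against Con each lost significance without at least 1 library.

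The replicate numbers belong to different animals, and same-numbered libraries deviated together with correlations of -0.12 to 0.11 and -0.14 to -0.02 in the 2 tables, so the numbers were not taken to pair them. With the replicate block 6 members were called higher and 8 lower in Cal over Model, where Atp5h had an adjusted p of 0.051 by limma, and 53 and 2 in Cal over Con. The depth behind unlisted subunits is unknown, so nothing is said of them.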
